A study of Homo sapiens with 8 samples.

Results

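Eph receptors and ephrins were followed after knockdown of KHSRP in KYSE850 cells, a human line established from a squamous cell carcinoma of the esophagus. The 10 genes were EPHA1, EPHA2, EPHA4, EPHB2, EPHB3, EPHB4, EPHB6, EFNA1, EFNB1 and EFNB2, and they comprised every array probe whose RefSeq accession mapped to one of these symbols. They had 13 of the 42405 probes on the arrays. Of these, 11 probes for 9 genes were bright enough to be tested, among 18761 tested probes for 12125 genes. EPHA4 is among the genes the study followed up, and EPHB6 is not. Both are in its list of mRNAs raised on these arrays, so neither change seen here is independent evidence of a rise. For EPHA4, the paper also reports a rise by quantitative PCR in this line after KHSRP knockdown. That measurement is separate from the arrays and was not examined here.

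Messenger RNA was hybridised to 8 one-colour Agilent arrays. Cells given a control siRNA supplied 4 arrays, and cells given siRNA against KHSRP supplied the other 4. Such an siRNA is a short duplex that directs the breakdown of its matching mRNA. All cells were of the same line, which of the KHSRP siRNAs each array received is not in the labels, and the knockdown in the study's methods was transient. Nothing in the labels says that arrays of a group came from separate cultures, so p-values measure only the spread between these arrays, which may be technical.

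Eph receptors are receptor tyrosine kinases, and their ligands, the ephrins, are held on the surface of neighbouring cells. Ephrin-A ligands are tied to the membrane by a lipid anchor and ephrin-B ligands cross it, so that contact can signal into both cells, forward through the receptor and in reverse through the ephrin. In epithelia this contact signal is known for sorting cells, holding boundaries and setting adhesion and movement. KHSRP is an RNA-binding protein known to promote the decay of mRNAs with AU-rich elements and the maturation of some miRNAs.

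The study listed EPHA4 as a predicted target of 3 miRNAs (miR-21, miR-301a and miR-130b), and their sequences are shown for that link. They are given 5′ to 3′ from RefSeq (GRCh38.p14), with the seed, bases 2 to 8, in capitals.
hsa-miR-301a-3p: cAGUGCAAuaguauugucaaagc
hsa-miR-130b-3p: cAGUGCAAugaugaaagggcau
hsa-miR-21-5p: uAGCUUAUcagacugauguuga
The first lies at chr17:59151149-59151171 on the minus strand, the second at chr22:21653354-21653375 on the plus strand and the third at chr17:59841273-59841294 on the plus strand. hsa-miR-301a-3p and hsa-miR-130b-3p share the seed AGUGCAA, and hsa-miR-21-5p has the seed AGCUUAU. No site in the EPHA4 mRNA was searched here, and the arrays did not measure mature miRNAs.

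A level below is the log2 of the processed spot intensity, averaged over the spots of a probe and set relative to the 75th percentile of all probes on that array. A level of 0 is therefore the brightness of a probe at that percentile, and levels of different probes cannot be ranked against each other. A log2 fold change is the mean level with KHSRP siRNA minus that with control siRNA. A probe is called when its limma p-value, adjusted by Benjamini-Hochberg over all 18761 tested probes, is under 0.05. Arrays are numbered as in their scanner files.

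Between 45.1% and 49.4% of probes were well above background on an array, and no spot was saturated. The KHSRP probe A_23_P16157 read 6.03, 5.81, 6.39 and 6.08 on control siRNA arrays 1 to 4 and 2.52, 2.58, 2.88 and 2.85 on KHSRP siRNA arrays 1 to 4. This left 9.66% of the control level (log2 fold change -3.37, SE 0.16, limma adjusted p = 5.95e-05), and matched the labels of all 8 arrays. All 8 markers of squamous epithelium looked for (KRT5, KRT14, KRT6A, TP63, SFN, DSG3, CDH3 and EPCAM) were well above background on all 8 arrays. Of the markers of other cells reported here, PECAM1, CDH5, COL3A1 and ALB were above it on none, PTPRC was on 4 arrays, CD3E was on 5, and COL1A1 was on all 8. One slide carried arrays 1 and 2 of each group, and a second slide carried arrays 3 and 4. In such bulk RNA, fewer cells with an mRNA and less of it per cell cannot be told apart.

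The replicate numbers bear on every result below. In the series matrix, the table of values the authors deposited beside the scanner files, the columns of KHSRP siRNA 3 and 4 hold the scanner values of KHSRP siRNA arrays 4 and 3 (each correlation rounded to 1). With the numbers of the series matrix, the deviations of same-numbered arrays from their group means correlated over the tested probes at 0.52, 0.43, 0.83 and 0.84. With the numbers of the scanner files, the last pair of values became -0.67 and -0.64. Same-numbered pairs below follow the series matrix, so that control siRNA array 3 is paired with KHSRP siRNA array 4 and control siRNA array 4 with KHSRP siRNA array 3. Which numbering is right is not given in the sources used here. The pairing was chosen by these correlations, so smaller SEs with it as a block partly follow from that choice.

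Without pairing, none of the 11 probes was called, where 5.54% of all tested probes were. EPHA4 and EPHB6 had an unadjusted p under 0.05, and the same 2 did by the methods' t-test on these values, which called 0 of the 11 after adjustment. The share of all tested probes with an unadjusted p under 0.05 was not counted. EPHA4 and EPHB6 were also the 2 of 11 that differed by over 1.5-fold, against 11.1% of all tested probes. The groups did not overlap for 0 of the 11 probes, against 14.8% of all tested probes. With same-numbered pairs as a block, EPHA4, EPHB6 and EFNB2 were called, 3 of 11 against 30.1% of all tested probes, so that the share in the family was close to the background. All 4 pairs moved one way for 5 of 11 probes, against 50.7% of all tested probes. With slide as a block, EPHA4 was called, 1 of 11 against 6.23% of all tested probes. With the scanner files' numbers as a block, 0 of 11 were, against 0.832%. The median log2 fold change was 0.20 over the 11 probes and 0.01 over all tested probes, a difference that was not tested.

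**Figure D1:**
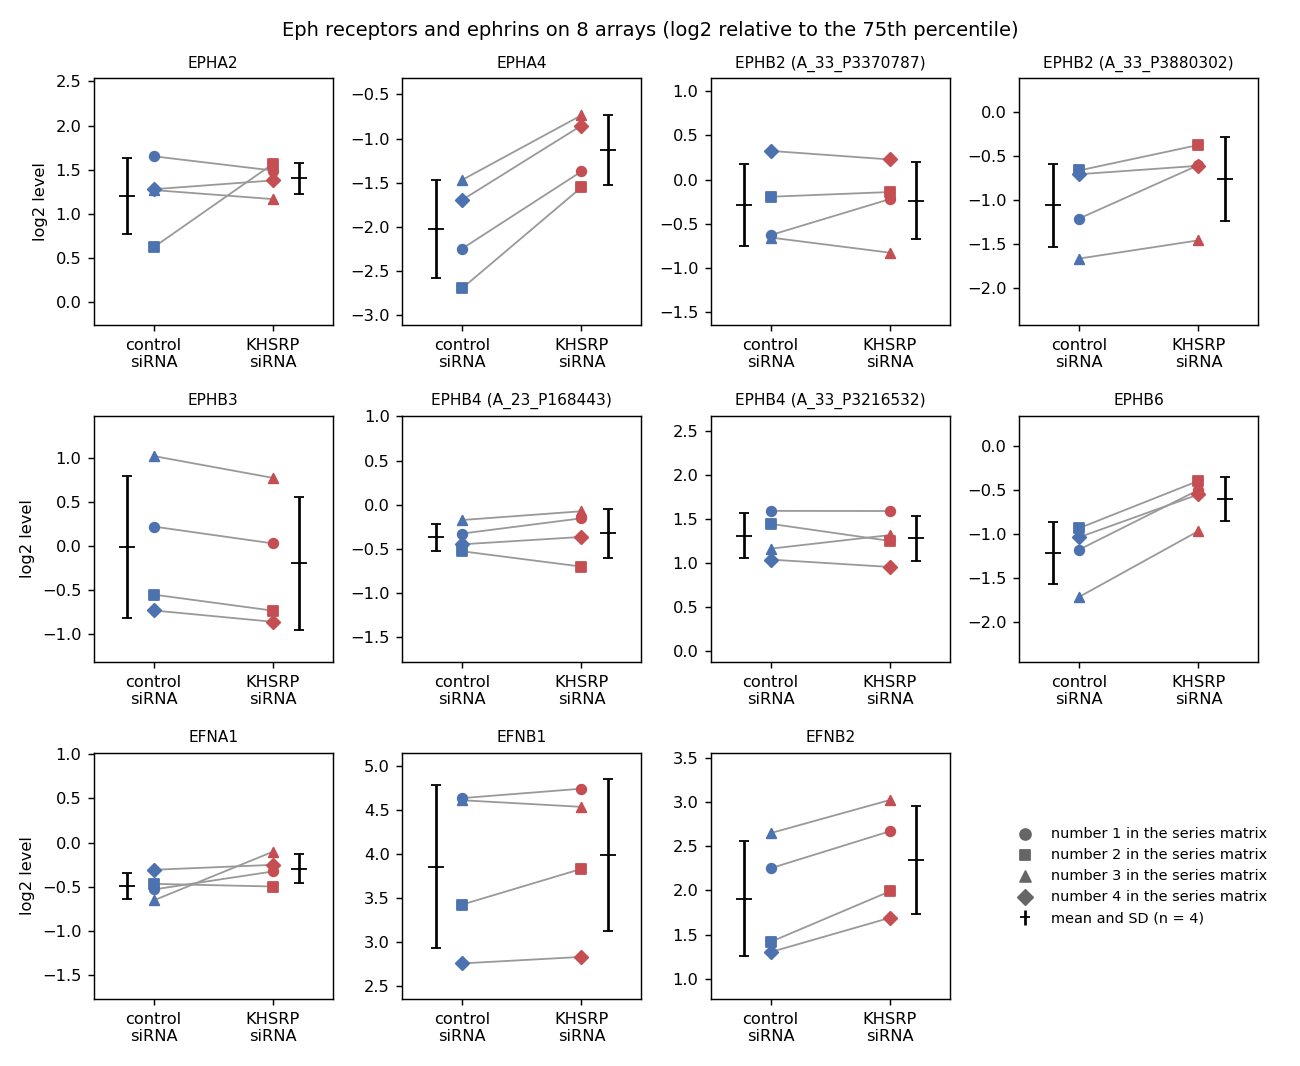
Levels of the 11 tested probes (y axis, log2 relative to the array's 75th percentile, each panel spanning the same range) with control siRNA and KHSRP siRNA. Each point is an array, its shape gives its number in the series matrix, grey lines join same-numbered arrays, and black marks give mean and SD (n = 4). EPHA4, EPHB6, EFNB2 and EPHB2 A_33_P3880302 were higher with KHSRP siRNA in all 4 pairs. EFNB1, EFNB2 and EPHB3 were spread widely within each group.

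Among the receptors of the A class, EPHA4 binds ephrins of both classes. Its probe A_23_P108501 read -2.25, -2.70, -1.47 and -1.70 on control siRNA arrays 1 to 4. It read -1.37, -1.55, -0.85 and -0.74 on KHSRP siRNA arrays 1 to 4. The highest control array lay above the lowest KHSRP siRNA array, so the groups overlapped, and in both groups arrays 3 and 4 were brighter than arrays 1 and 2.

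The mean level went from -2.03 ± 0.55 (SD, n = 4) on control siRNA arrays to -1.13 ± 0.40 (SD, n = 4) on KHSRP siRNA arrays. This is a log2 fold change of 0.90 (SE 0.30, 95% interval 0.22 to 1.58), a 1.87-fold difference that was not called (limma adjusted p = 0.133). The exact permutation test over arrays gave p = 0.0571 (two-sided, where 4 arrays against 4 allow no p under 0.0286). The brightest control array exceeded the dimmest by 2.35-fold, more than the difference between the groups.

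Part of that spread followed the slide. The difference was 1.01 within the first slide and 0.79 within the second, and with slide as a block its SE was 0.14 (limma adjusted p = 0.0137). Within same-numbered pairs it was 0.88, 1.15, 0.73 and 0.85, so that EPHA4 was higher with KHSRP siRNA in 4 of 4 pairs. With these pairs as a block the SE was 0.086 (95% interval 0.69 to 1.12, limma adjusted p = 0.00272). Leaving out each pair in turn gave 0.82 to 0.96, with adjusted p between 0.00857 and 0.0167. With the scanner files' numbers as the block, the adjusted p was 0.0671.

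EPHA4 was a dim probe, with a mean processed signal between 18.2 and 53.2 intensity units per array. It was printed in 10 spots, of which 7 to 10 per array were used after outlier marks, and their log2 values had an SD between 0.100 and 0.292 within an array. The size of its change depended on the processing. An alternative with normexp correction, median spot signals and quantile normalization gave a log2 fold change of 0.30 in place of 0.90. That correction added an offset of 50 units to every spot, on the order of this probe's own signal. Of the 12 genes the study followed, 10 were tested, with log2 fold changes from 0.60 to 1.21, and that of EPHA4 lay inside this range. The study took the 12 from mRNAs raised over 1.5-fold on these same arrays, so the range partly follows from that choice.

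EPHA2, a receptor of ephrin-A ligands that is abundant in many epithelia, read 1.65, 0.62, 1.27 and 1.28 on control siRNA arrays 1 to 4. It read 1.49, 1.56, 1.38 and 1.16 on KHSRP siRNA arrays 1 to 4. Control siRNA array 2 alone stood lower than the rest. The log2 fold change of 0.20 (SE 0.21, 95% interval -0.29 to 0.68) was not called (limma adjusted p = 0.714), and without control siRNA array 2 it was close to 0.

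EPHA1, the founding member of the family, was near the limit of detection. Its probe A_23_P157333 was well above background on control siRNA arrays 2 and 4 and KHSRP siRNA arrays 1 and 2, and was not tested. Its levels were -4.73, -3.25, -5.14 and -3.60 with control siRNA and -3.26, -3.15, -3.54 and -4.85 with KHSRP siRNA.

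Among the receptors of the B class, EPHB6 has a kinase domain that lacks catalytic activity. It read -1.18, -0.93, -1.71 and -1.04 on control siRNA arrays 1 to 4. It read -0.50, -0.39, -0.55 and -0.96 on KHSRP siRNA arrays 1 to 4. KHSRP siRNA array 4 fell among the controls, and the other 3 KHSRP siRNA arrays lay above all of them.

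The mean of EPHB6 was -1.21 ± 0.35 (SD, n = 4) on control siRNA arrays and -0.60 ± 0.25 (SD, n = 4) on KHSRP siRNA arrays. The log2 fold change of 0.61 (SE 0.20, 95% interval 0.15 to 1.07), a 1.53-fold difference, was not called (limma adjusted p = 0.129). It was 0.61 within the first slide and 0.62 within the second, and the block by slide left it uncalled (adjusted p = 0.0958). Within same-numbered pairs the difference was 0.68, 0.54, 0.75 and 0.49, and with these pairs as a block it was called (SE 0.073, limma adjusted p = 0.00441). Leaving out each pair in turn kept the adjusted p between 0.0142 and 0.0238. Normexp correction gave a log2 fold change of 0.26.

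EPHB3, a receptor of ephrin-B ligands, read 0.22, -0.55, 1.02 and -0.73 on control siRNA arrays 1 to 4. It read 0.03, -0.74, -0.86 and 0.77 on KHSRP siRNA arrays 1 to 4. The brightest and dimmest array differed by 3.37-fold within the controls and by 3.10-fold within the KHSRP siRNA arrays. This spread within groups was larger than the difference between them, a log2 fold change of -0.19 (SE 0.47, 95% interval -1.26 to 0.89, limma adjusted p = 0.901).

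EPHB3 was lower with KHSRP siRNA in 4 of 4 same-numbered pairs, by -0.25 to -0.13. With pairs as a block the SE was 0.061 (95% interval -0.34 to -0.04), which did not pass the threshold (limma adjusted p = 0.0671). The within-slide differences were both -0.19.

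EPHB2, also a receptor of ephrin-B ligands, had 3 probes. A_33_P3370787 read -0.63, -0.20, -0.66 and 0.32 with control siRNA and -0.22, -0.14, 0.23 and -0.83 with KHSRP siRNA, for a log2 fold change of 0.05 (SE 0.28, limma adjusted p = 0.961). A_33_P3880302 read -1.21, -0.67, -1.67 and -0.71 with control siRNA and -0.61, -0.38, -0.61 and -1.46 with KHSRP siRNA, for 0.30 (SE 0.30, limma adjusted p = 0.675). On both probes control siRNA array 3 and KHSRP siRNA array 4 were the dimmest of their groups. The second probe was higher in 4 of 4 same-numbered pairs, and with pairs as a block its adjusted p was 0.0713 by limma. The third, A_33_P3331376, was well above background on 6 of 8 arrays, all but control siRNA array 3 and KHSRP siRNA array 4, and was not tested.

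EPHB4, which binds ephrin-B2 with preference, differed least among arrays of the B class. Its probe A_23_P168443 read -0.33, -0.53, -0.18 and -0.45 with control siRNA and -0.16, -0.70, -0.37 and -0.08 with KHSRP siRNA. This gave a log2 fold change of 0.05 (95% interval -0.32 to 0.41). A_33_P3216532 read 1.59, 1.44, 1.16 and 1.04 with control siRNA and 1.59, 1.25, 0.95 and 1.32 with KHSRP siRNA, for -0.03 (95% interval -0.44 to 0.37). These intervals leave out a 1.5-fold change in either direction.

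Among the ligands, EFNB1 and EFNB2 carry the reverse signal of the B class. EFNB1, at probe A_24_P365807, read 4.63, 3.43, 4.61 and 2.76 on control siRNA arrays 1 to 4. It read 4.74, 3.83, 2.83 and 4.54 on KHSRP siRNA arrays 1 to 4. Arrays 1 and 3 of the controls and arrays 1 and 4 of the KHSRP siRNA group were high, and the other arrays of each group were low.

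The brightest array exceeded the dimmest by 3.67-fold within the controls and by 3.76-fold within the KHSRP siRNA group, while the group means differed by 1.09-fold. Their log2 fold change was 0.13 (SE 0.54, 95% interval -1.10 to 1.36, limma adjusted p = 0.944). Same-numbered pairs differed by 0.11, 0.41, -0.07 and 0.07, and within the 2 slides the difference was 0.26 in the first and close to 0 in the second. With pairs as a block the SE was 0.094 (95% interval -0.11 to 0.36, limma adjusted p = 0.348). That interval leaves out a 1.5-fold change, which the interval without the block does not.

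EFNB2 divided the arrays in the same way. It read 2.25, 1.42, 2.65 and 1.30 on control siRNA arrays 1 to 4. It read 2.67, 1.99, 1.69 and 3.03 on KHSRP siRNA arrays 1 to 4. Control siRNA arrays 1 and 3 and KHSRP siRNA arrays 1 and 4 again lay above all the others, as they did for EPHB3.

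EFNB2 had a log2 fold change of 0.44 (SE 0.39, 95% interval -0.44 to 1.32), which was not called (limma adjusted p = 0.627). It was 0.50 within the first slide and 0.38 within the second. Same-numbered pairs differed by 0.42, 0.57, 0.38 and 0.39, close to each other, whereas arrays of one group spanned 2.55-fold and 2.53-fold. With these pairs as a block, EFNB2 was called (SE 0.067, 95% interval 0.27 to 0.61, limma adjusted p = 0.00806). Leaving out each pair in turn, with the same pairing, kept the adjusted p between 0.0240 and 0.0349. EFNB2 was not called with slide as a block (limma adjusted p = 0.637) or with the scanner files' numbers as a block (limma adjusted p = 0.710).

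EFNA1, a lipid-anchored ligand of A-class receptors, had the smallest spread of the 11 probes. It read -0.53, -0.47, -0.66 and -0.31 with control siRNA and -0.33, -0.50, -0.25 and -0.10 with KHSRP siRNA, from 9 or 10 spots per array. Its log2 fold change was 0.20 (SE 0.13, 95% interval -0.10 to 0.49, limma adjusted p = 0.476). It was higher in 3 of 4 same-numbered pairs.

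**Figure D2:**
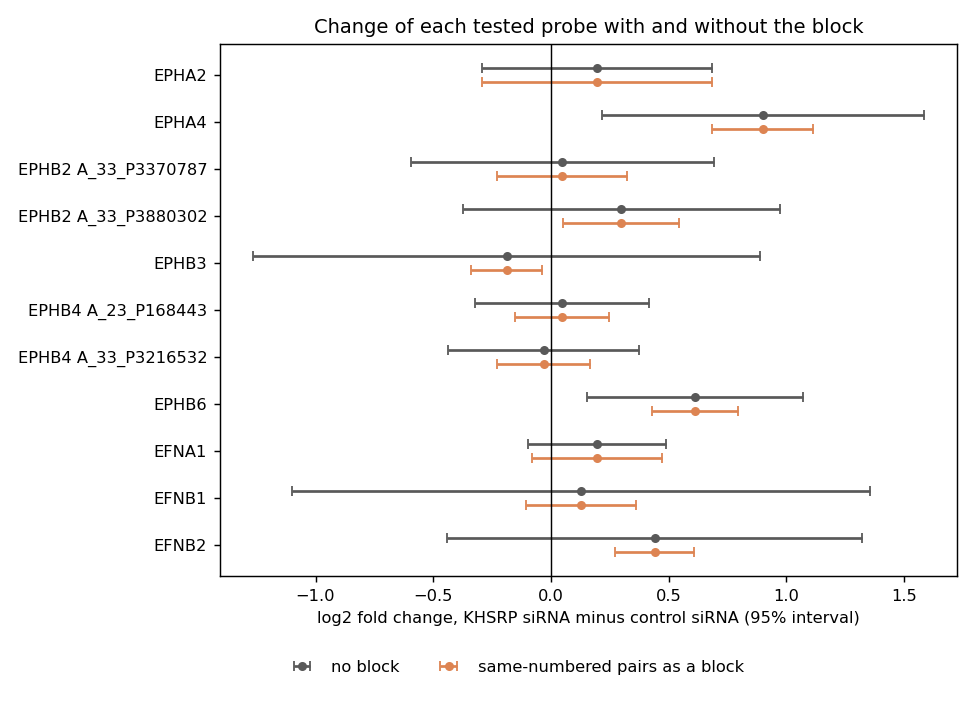
Log2 fold change (x axis, KHSRP siRNA minus control siRNA) of each tested probe with its 95% interval from limma, without a block (grey) and with same-numbered pairs of the series matrix as a block (orange). The estimates are the same in both fits. The interval of EFNB1 narrows from -1.10 to 1.36 down to -0.11 to 0.36, and that of EPHA2 does not narrow.

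Members differed in how far arrays of one group lay apart. The SD within a group, pooled over both groups, had a median of 0.45 over the 11 probes and of 0.26 over all tested probes. It was larger for EFNB1 than for 96.4% of tested probes, for EPHB3 than for 94.7% and for EFNB2 than for 90.9%. EPHB6, EPHB4 and EFNA1 were near or below the middle, with 59.0% of probes smaller for EPHB6, 48.3% and 40.4% for the EPHB4 probes and 18.9% for EFNA1. Each slide held control siRNA and KHSRP siRNA arrays on which EFNB1, EFNB2 and EPHB3 were high and others on which they were low, so the division did not follow the slide, nor did it follow the siRNA. It followed the replicate numbers of the series matrix: in both groups the arrays numbered 1 and 3 there were high and those numbered 2 and 4 were low. With same-numbered pairs as a block the SE was 5.74 times smaller for EFNB1, 5.78 times for EFNB2 and 7.78 times for EPHB3. That pairing was chosen by correlations over these arrays, so this agreement and the smaller SEs partly follow from the choice. By the scanner files' numbers, high and low arrays did not match between the groups for numbers 3 and 4. Those numbers as a block gave SEs of 0.57 for EFNB1, 0.44 for EFNB2 and 0.54 for EPHB3, against 0.54, 0.39 and 0.47 without a block. What the replicate numbers stand for is not given in the sources used here.

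**Figure D3:**
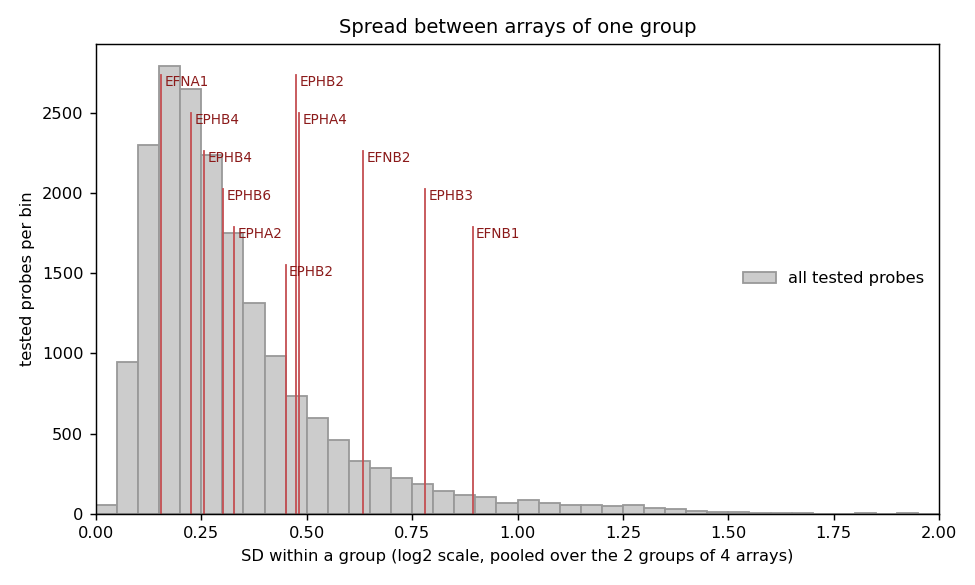
Number of tested probes (y axis) by the SD between arrays of one group (x axis, log2 scale, pooled over 2 groups of 4 arrays), with red lines at the 11 probes for Eph receptors and ephrins; 5 probes with an SD over 2 are not drawn. EFNB1, EPHB3 and EFNB2 stand in the upper tail, above 90.9% or more of the tested probes, and EFNA1 on the lower side.

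Because EFNB1, EFNB2 and EPHB3 moved together across arrays, the 250 bases before the start of each are given from RefSeq (GRCh38.p14), 5′ to 3′ on the strand of the gene, with the GC box GGGCGG on either strand in capitals.
EFNB1, chrX:68828771-68829020, plus strand: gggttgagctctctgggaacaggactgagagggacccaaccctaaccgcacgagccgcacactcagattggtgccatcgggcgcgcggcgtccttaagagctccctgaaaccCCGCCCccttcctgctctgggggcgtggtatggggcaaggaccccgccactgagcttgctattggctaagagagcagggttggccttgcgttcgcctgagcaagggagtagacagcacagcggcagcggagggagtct
EFNB2, chr13:106535663-106535912, minus strand: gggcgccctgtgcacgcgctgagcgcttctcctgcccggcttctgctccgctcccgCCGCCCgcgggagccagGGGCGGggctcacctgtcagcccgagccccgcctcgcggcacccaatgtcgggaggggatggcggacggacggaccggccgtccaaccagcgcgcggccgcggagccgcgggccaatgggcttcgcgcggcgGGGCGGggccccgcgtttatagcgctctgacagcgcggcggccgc
EPHB3, chr3:184561535-184561784, plus strand: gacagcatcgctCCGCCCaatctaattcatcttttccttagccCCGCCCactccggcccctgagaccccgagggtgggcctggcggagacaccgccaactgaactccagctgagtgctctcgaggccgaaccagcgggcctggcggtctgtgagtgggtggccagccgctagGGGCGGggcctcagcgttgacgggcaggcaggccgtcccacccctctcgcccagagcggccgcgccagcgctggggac
The window held 1 GC box for EFNB1 and 3 each for EFNB2 and EPHB3, and 42.6% of the 35116 promoter windows of this length in the table held at least 1. Their GC content was 63.6%, 78.4% and 70.0%, against a median of 58.0% over all windows. The windows of the other members held 1 to 5 GC boxes. Their GC content ran from 43.2% in a window of EPHA4 to 84.8% for EPHB2, so neither trait set the 3 genes apart. None of the 3 held the E-box CACGTG, found in 6.34% of windows, or the AP-1 motif TGACTCA, found in 4.20%. The TATAAA letters, found in 10.7% of windows, were in that of EFNB2 only, on one strand or the other. These matches describe the letters and no binding was measured.

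The next comparison was whether EPHA4 changed unlike the other members. For this, the level of each other member was subtracted from that of EPHA4 on the same array, which removes the scaling between arrays, and 8 such differences were compared between the groups. EPHA4 changed by 1.09 more than EPHB3 (exact permutation p = 0.0857), 0.93 more than EPHB4 (p = 0.171), 0.85 more than EPHB2 (p = 0.171) and 0.70 more than both EPHA2 (p = 0.143) and EFNA1 (p = 0.0857). Against the ephrin-B ligands the excess was 0.77 for EFNB1 (exact p = 0.40) and 0.46 for EFNB2 (p = 0.371). It was least against EPHB6, 0.29 (exact p = 0.629). The study took up EPHA4 from the mRNAs raised on these same arrays, so its excess over the other members is not independent evidence.

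None of the 8 passed an exact permutation test (two-sided), and p adjusted by Benjamini-Hochberg over the 8 ran from 0.274 to 0.629. With 4 arrays against 4 the smallest p is 0.0286, so that 1 difference alone could not pass after this adjustment. Within same-numbered pairs EPHA4 changed more than the other member in 4 of 4 pairs for all of them except EPHB6, where it did in 3 of 4. The excess over EFNB1 was 0.77, 0.74, 0.81 and 0.77 in the 4 pairs, and that over EPHB3 was 1.07, 1.33, 0.98 and 0.97. The excess over EPHB6 ranged from -0.01 to 0.61. An exact sign-flip permutation test over the 4 pairs (two-sided) gave p = 0.125, the smallest it allows, for 7 members and p = 0.25 for EPHB6, so that a test of this kind cannot pass the threshold with 4 pairs.

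The genes whose pattern over the 8 arrays was most like that of EPHA4 were sought among tested probes well above background on every array. Few of these probes belong to the family, so the list is not a comparison with the other members. Likeness was the root mean square difference of levels centred on each probe's mean, over 14465 candidate probes, with a median of 0.67. It was 0.130 for MTG1, a GTPase of the mitochondrial ribosome, 0.176 for EIF5A2, a translation factor, 0.207 for ONECUT1, a transcription factor, 0.223 for C2orf68 and 0.224 for GXYLT1, a xylosyltransferase. The SD of EPHA4 over the arrays was 0.61, and the log2 fold changes of these genes ranged from 0.61 for GXYLT1 to 1.09 for C2orf68.

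The remaining 12 genes of the family had 19 probes, most of them dark in this line. EPHA3, EPHA5, EPHA6, EPHA7, EPHA8 and EPHB1 were well above background on no array, and their mRNA was not detectable at this signal. EPHA10, EFNA2 and EFNA4 were tested.

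EFNA4, a lipid-anchored ligand, was the one tested gene of the family whose groups did not overlap, which also held for 14.8% of all tested probes. Its probe A_23_P322 read 0.20, 0.14, 0.15 and 0.34 with control siRNA and -0.22, -0.06, 0.005 and -0.06 with KHSRP siRNA. The log2 fold change of -0.29 (SE 0.11) was not called (limma adjusted p = 0.166), and it passed with same-numbered pairs as a block (limma adjusted p = 0.0290). It did not pass with slide as a block (limma adjusted p = 0.132) or with the scanner files' numbers as a block (limma adjusted p = 0.305). All 4 KHSRP siRNA arrays were below all controls.

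EPHA10, which lacks kinase activity, read -1.25, -0.47, -2.60 and -0.46 on control siRNA arrays and -0.80, 0.05, -0.12 and -1.87 on KHSRP siRNA arrays, at probe A_24_P930741. It was low on the arrays where EFNB1 was high. Its log2 fold change was 0.51 (limma adjusted p = 0.722, and 0.00993 with pairs as a block). The other EPHA10 probes, A_23_P385199 and A_33_P3301104, were well above background on no array and were not tested. EFNA2, well above background on 2 control siRNA and 4 KHSRP siRNA arrays, had a log2 fold change of 0.34 (limma adjusted p = 0.666). It passed the filter only through the KHSRP siRNA group, where its mean was higher, so this change is not independent of the filter.

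The ligands EFNB3, EFNA3 and EFNA5 were seen on some arrays and were not tested. EFNB3 was well above background on control siRNA arrays 1, 2 and 3 and KHSRP siRNA arrays 1 and 4. It read -1.73, -2.84, -1.45 and -4.56 on control siRNA arrays 1 to 4 and -1.79, -3.39, -3.63 and -1.65 on KHSRP siRNA arrays 1 to 4, which is the division seen for EFNB1. EFNA3 was well above background on 6 arrays and EFNA5 on 2.

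The signals of Eph receptors and ephrins pass through adaptors, kinases, regulators of small GTPases, phosphatases, proteases and proteins that bind the ephrin-B tail. Of 63 such partner genes listed, 60 were tested, and 1 was called, against 6.19% of all tested genes. CRK, an adaptor that couples tyrosine kinases to GTPase regulators, read 0.38, 0.67, 0.27 and 0.38 with control siRNA and -0.63, -0.60, -0.51 and -0.80 with KHSRP siRNA. It fell by 1.06 on the log2 scale (SE 0.13, limma adjusted p = 0.00321), its groups did not overlap, and it passed with slide or with pairs as a block.

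The median log2 fold change was 0.04 over the 60 partner genes and 0.01 over all tested genes. The largest changes that were not called were those of CBLB, CHN2 and PIK3R1. That of CBLB, a ubiquitin ligase of receptor kinases, was -1.003 (adjusted p = 0.405 by limma). That of CHN2, a GTPase-activating protein of Rac, was -0.92 (limma adjusted p = 0.0709). Its probe was dim, with mean levels of -2.75 with control siRNA and -3.67 with KHSRP siRNA, and 1 of its 3 probes was tested. That of PIK3R1, a regulatory subunit of phosphoinositide 3-kinase, was -0.83 (limma adjusted p = 0.0671). CBLB read 1.48, 0.30, 1.96 and -0.11 with control siRNA and 0.51, -0.48, -1.25 and 0.83 with KHSRP siRNA, high and low on the same arrays as EFNB1 within each group.

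With same-numbered pairs as a block, 17 of the 60 partner genes were called, 6 higher and 11 lower, against 33.0% of all tested genes. The 8 with the largest changes were CRK, CBLB, CHN2 and PIK3R1 above, together with RGS3 (-0.75, limma adjusted p = 0.00734), which binds the tail of ephrin-B, ROCK2 (-0.66, adjusted p = 0.00990), a kinase downstream of RhoA, LIMK1 (0.58, adjusted p = 0.0249), a kinase of cofilin, and PICK1 (-0.54, adjusted p = 0.00481), a PDZ protein that binds ephrin-B. Called genes numbered 5 of 12 adaptors, 3 of 9 kinases, 3 of 12 regulators of GTPases, 3 of 9 GTPases and cytoskeletal effectors, 0 of 5 phosphatases, 1 of 7 proteases and 2 of 6 proteins of the ephrin-B tail. ROCK2 and RGS3 were also called with slide as a block. With that block 3 of the 60 partner genes were called, these and CRK, against 834 of the 12125 tested genes.

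The adaptor GRB10, named after its values were seen, had probes that disagreed. The probe that stood for the gene by its higher mean over the 8 arrays, A_23_P122863, read between 2.41 and 3.38 and had a log2 fold change of 0.30 (limma adjusted p = 0.519). The other, A_24_P235266, rose by 0.80 (limma adjusted p = 0.00668), and its groups did not overlap.

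**Figure D4:**
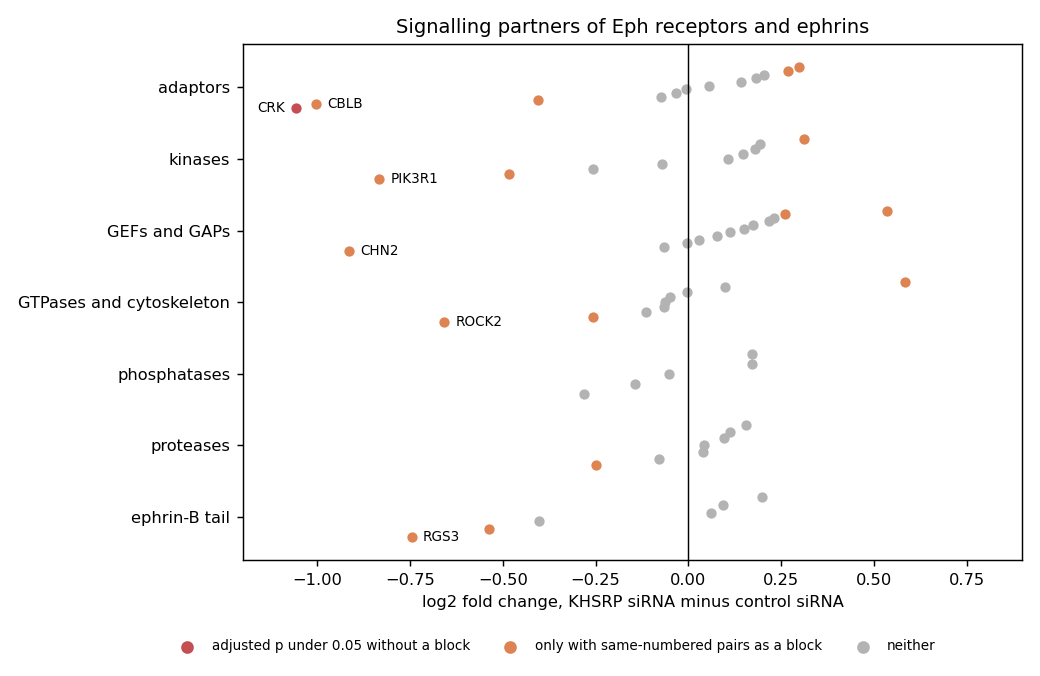
Log2 fold change (x axis, KHSRP siRNA minus control siRNA) of the 60 tested partner genes, 1 point a gene, grouped by role (y axis). Red marks CRK, called without a block, orange the other genes called when same-numbered pairs were a block, of which ROCK2 and RGS3 were also called with slide as a block, and grey the rest. CRK, CBLB and CHN2 lie farthest to the left.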

How the data were processed

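Messenger RNA of KYSE850 cells was measured on 8 arrays, 4 with control siRNA and 4 with KHSRP siRNA, grouped by their labels, and no array was left out. Per the file headers, the authors deposited linear spot intensity from Agilent Feature Extraction 11.5.1.1, with background subtracted and detrending done inside each array, and no scaling across arrays. The submitters' processing notes name Agilent Feature Extraction 12.6. The deposited series matrix holds log2 values (from GeneSpring, per the methods) and served as an alternative and for the replicate numbers. The labels and the methods name different kits for RNA extraction.

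Control spots and spots with an outlier mark (265 to 346 per array) were dropped. The log2 intensity was averaged per probe and set relative to the 75th percentile of each array, which was 87.7 to 117 intensity units. Testing required that 0.5 or more of the spots of a probe exceeded background clearly, by the scanner's flag, on all 4 arrays of a group. Accessions were joined to RefSeq symbols (GRCh38.p14), which 27241 of 42405 probes (64.2%) received. For partner genes the tested probe with the highest mean level stood for the gene. The comparison of groups used limma 3.58.1 with R 4.3.3, by lmFit and then eBayes, two-sided and without a block, with Benjamini-Hochberg adjustment, and the fit was tested on simulated data. Other steps used Python 3.11.15 and scipy 1.17.1. The number of arrays limits the precision.

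Arrays were paired by the numbers of the series matrix, because with them every pair's deviations correlated above 0.1. This choice was made from these same data, so calls with that block are not independent of it. The fit with that block is given beside the other. The genes, lists and tests were chosen with earlier results of these data known. The text names all members, the rest of the family, the partner genes called (up to 8 by size), the 3 largest changes not called, and the 5 probes most like EPHA4. Alternatives covered scaling, background correction, the filter on dim probes, blocks, the variance model, the methods' t-test and leaving out each array. Leaving out each same-numbered pair, and the sign-flip test over pairs, were chosen after seeing the data. Each member's groups were checked for outlying arrays by Dixon's criterion, and none was found. Of the listed markers of other cells, 1 is not reported here.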

Additional observations from a re-analysis of the deposited data

How the results depend on the processing

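The KHSRP change kept its call in all 21 alternatives, between -3.46 and -3.21. The EPHA4 change of 0.90 was past the threshold with slide as a block (0.90) and with the replicate block of the series matrix (0.90), and in no other alternative. The EPHB6 change of 0.61 was past it with that replicate block only (0.61), as was that of EFNB2. Without each array in turn, EPHA4 ranged from 0.68 to 1.09 (adjusted p 0.0976 to 0.282) and EPHB6 from 0.45 to 0.73. Normexp correction moved them to 0.30 and 0.26, and the cause was not tested. Member probes called numbered 1 with slide as a block, 3 with the replicate block of the series matrix and 0 in every other alternative. All tested probes called numbered 570 when scaled to the median, 319 without the filter on dim probes, 156 with the replicate block of the scanner files, 5644 with that of the series matrix, and 489 to 766 without 1 array, of which the lowest was without control siRNA 1. Partner genes called numbered 3 with quantile normalization, 2 with normexp, 2 over probes bright on all 8 arrays, 3 with slide as a block, 0 with the scanner files' replicate block (CRK was lost), 17 with that of the series matrix, 2 with array weights, 4 by the methods' t-test, 2 with the smallest p per gene and 1 to 2 without 1 array. Differences of EPHA4 from another member whose groups did not overlap numbered 0 to 2 without 1 array, 2 of the 8 without control siRNA 3 or control siRNA 4, and with the replicate block of the series matrix 7 of the 8 moved one way in all 4 pairs. Signs turned only for changes that were never called. Scaled to the median, EPHB2 A_33_P3370787 had -0.026 and EPHB4 A_23_P168443 -0.028. Without 1 array, EPHB2 A_33_P3370787 ranged from -0.11 to 0.25 (turned without control siRNA 1 or 3 or KHSRP siRNA 3), EPHB3 from -0.51 to 0.16 (control siRNA 3, KHSRP siRNA 3), EPHB4 A_23_P168443 from -0.038 to 0.172 (control siRNA 2, KHSRP siRNA 1 or 4), EPHB4 A_33_P3216532 from -0.135 to 0.076 (control siRNA 1 or 2, KHSRP siRNA 3), and EFNB1 from -0.24 to 0.51 (control siRNA 2 or 4, KHSRP siRNA 1 or 4). The other alternatives changed no sign of a member. The block results rest on 4 pairs whose numbering differs between the deposited files, and the probes of EPHA4 and EPHA1 lie close to background, which limits the precision of their changes.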
